A study of Mus musculus with 8 samples.

Results

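The type I interferon stimulated genes described here are 36 genes of the antiviral program, taken by symbol from the deposited gene table. All 36 symbols were found among the 25766 entries of the table, and all 36 passed the filter on low counts that left 14907 genes for testing. Their RNA was measured by RNA-seq in 8 subcutaneous tumors grown from MC38-OVA, a colon adenocarcinoma line of the mouse that carries ovalbumin as a model antigen. In 4 tumors the injected cells carried shNT, the control hairpin, and in 4 they carried shXBP1, a hairpin against Xbp1, the transcription factor of the unfolded protein response that the study addresses in the cancer cell. Cells of both genotypes went under the skin of female C57BL/6J mice, a strain that the protocol text spells C57BL/5J. The hosts' age, the number of hairpins or clones, and whether each tumor came from its own mouse were not given in the sources used here, so a p-value here measures the spread between tumors, which may be technical. RNA was taken from whole tumors, and in such samples fewer cells of a type and less RNA per cell cannot be told apart.

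Type I interferons, the alpha and beta interferons, bind the receptor made of Ifnar1 and Ifnar2 and act through the kinases Jak1 and Tyk2. The kinases phosphorylate Stat2, which joins Irf9 in the factor ISGF3. ISGF3 binds the interferon stimulated response element in the promoters of these genes. Interferon-gamma acts through another receptor and through the gamma activated site, and many genes answer both kinds of interferon. The products block viral replication, sense viral RNA, or tune the response itself. In tumors the program is known both in cancer cells and in myeloid cells, dendritic cells above all.

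Promoter stretches are shown because the response element is where ISGF3 binds these genes. The windows are those of RefSeq on GRCm38.p6, 300 bases long, with 250 bases before the annotated start and 50 from it on. The core of the element was taken as GAAA, any 2 bases and GAAA again, on either strand, with overlapping matches counted singly. Of the 27 members that have a window there, 14 held a match, against 3.99% of all 27025 genes with a window. By call, 8 of 17 called members and 6 of 10 members that did not pass held one. The gamma activated site, TTCNNNGAA, lay in the windows of 5 members, against 9.55% of all genes. These were Bst2, Eif2ak2, Ifi35, Ifit2 and Oas1a, of which Bst2, Eif2ak2 and Oas1a held both motifs. In Bst2 the 2 motifs overlap, since its gamma activated site begins at base -136 from the start and its first response element at -130. Mx1, Mx2, Oas2, Dhx58, Ifi27l2a, Parp14, Parp9, Rtp4 and Usp18 were not searched here. The stretches printed here lie before the start, run 5′ to 3′ on the strand of the gene, and have the matches to the response element in capitals. They come from 4 genes called higher (Isg15, Bst2, Oas1a and its near copy Oas1g) and from 3 genes of IFIT proteins that did not pass, so that both outcomes can be read side by side. Where the match is on the other strand it reads as TTTC, 2 bases and TTTC.
Isg15 (chr4:156200850-156200911, minus strand): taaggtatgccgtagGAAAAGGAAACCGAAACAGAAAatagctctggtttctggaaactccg
Bst2 (chr8:71537562-71537617, minus strand): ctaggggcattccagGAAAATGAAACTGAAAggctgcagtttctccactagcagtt
Oas1a (chr5:120907526-120907560, minus strand): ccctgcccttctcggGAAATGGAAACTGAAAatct
Oas1g (chr5:120887614-120887646, minus strand): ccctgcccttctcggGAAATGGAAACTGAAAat
Ifit1 (chr19:34640770-34640838, plus strand): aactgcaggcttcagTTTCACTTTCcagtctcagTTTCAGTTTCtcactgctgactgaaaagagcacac
Ifit3 (chr19:34583358-34583441, plus strand): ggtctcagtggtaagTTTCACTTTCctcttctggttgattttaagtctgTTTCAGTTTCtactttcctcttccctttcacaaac
Ifit3b (chr19:34607754-34607837, plus strand): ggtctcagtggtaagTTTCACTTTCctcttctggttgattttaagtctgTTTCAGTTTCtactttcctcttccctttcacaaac
Isg15 held 3 overlapping matches, the first of which begins at base -78 from its start, and the other printed genes held 2 each. The stretches of Ifit3 and Ifit3b are the same letter for letter, at another distance from the start. A match describes letters in the window and not binding.

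Total counts ranged from 29070605 to 36012997 per tumor. The largest total was that of shXBP1 tumor 4, which also had the most entries with any count (18190, against 17225 to 17728 in the others). Xbp1 was at 97.3, 96.0, 103 and 109 CPM in the shNT and 77.2, 76.0, 73.7 and 56.6 CPM in the shXBP1 tumors (log2 fold change -0.51 with SE 0.10, adjusted p = 0.00255; edgeR quasi-likelihood test, p adjusted by Benjamini-Hochberg over the genes tested, as for every adjusted p here). Of 8 markers of epithelial cells, the lineage named in the label of the line, 3 passed the filter and 0 passed the test. Cdh1 lay between 4.54 and 9.86 CPM, Epcam and Krt19 at or below 1.07 CPM, and Cdx2 was at 0 in all tumors. Krt8, Krt18, Krt20 and Vil1 were under the filter. Ptprc, the gene of the pan-leukocyte antigen CD45, was at 59.4, 42.6, 66.5 and 56.4 CPM in the shNT and 156, 193, 171 and 94.8 CPM in the shXBP1 tumors (adjusted p = 0.00128).

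Interferon stimulated genes were higher in shXBP1 tumors as a group, with a median log2 fold change of 0.72 (1.65-fold) over the 36 members, against -0.01 over all genes tested. The test called 24 members higher and 0 lower, and 12 did not pass. Over all genes tested 16.9% were called higher and 13.1% lower. Before adjustment 29 members were higher and 0 lower at a p under 0.05, and limma voom and DESeq2 also called 0 members lower. The share of all genes at that unadjusted cutoff was not counted, so no background stands beside the 29. The fold change was above 0 for all 36 members and ranged from 0.03 to 1.54 on the log2 scale, with 6 of the called members at least 2-fold higher. In 19 members the lowest shXBP1 tumor lay above the highest shNT tumor, a pattern found in 16.6% of all genes tested. When the log2 CPM of Ptprc entered the fit as a covariate, edgeR called 0 members in either direction (at an unadjusted p under 0.05, 1 was higher and 0 lower), with a median of 0.037. With that covariate 0.899% of all genes were called higher and 0.711% lower. Since Ptprc did not overlap between the groups, the share of the group and that of leukocytes cannot be told apart in that fit.

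**Figure D1:**
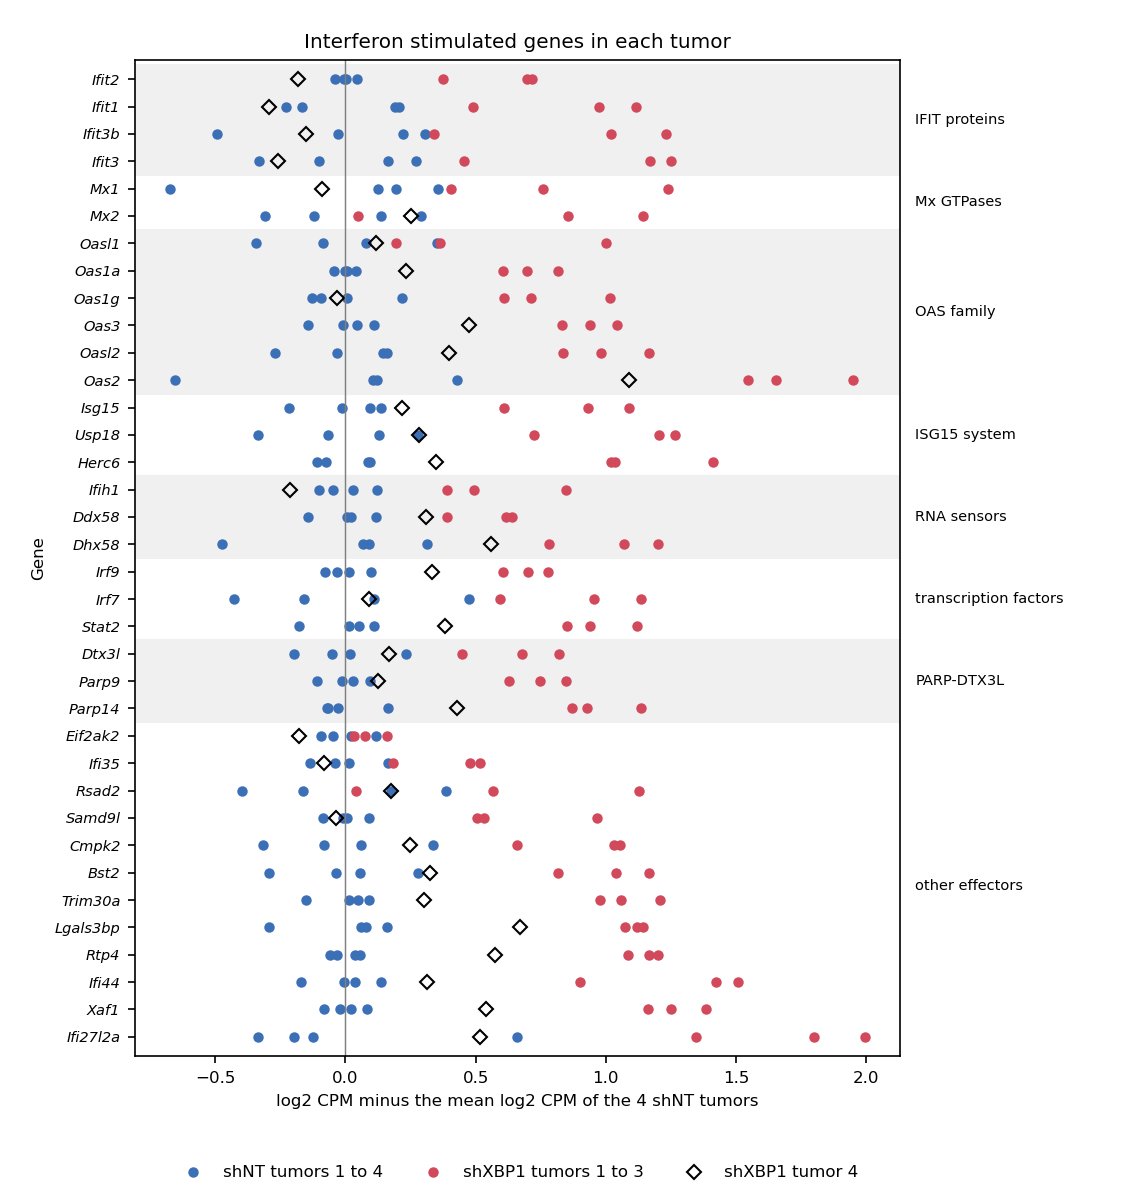
Level of each of the 36 members in each tumor, as log2 CPM minus the mean log2 CPM of the 4 shNT tumors (x axis), with genes in rows by role. Blue points are shNT tumors 1 to 4, red points shXBP1 tumors 1 to 3 and open diamonds shXBP1 tumor 4, which was the lowest shXBP1 tumor in 34 of 36 members.

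The IFIT proteins bind viral RNA and block its translation. Of their 4 genes 0 passed the edgeR test, with a median log2 fold change of 0.66. Their genes lie side by side on chromosome 19 (34550694 to 34650009, GRCm38). The outcome depended on the method. DESeq2 called Ifit2 (adjusted p = 0.0274) and Ifit3b (0.0338) higher, but not Ifit1 (0.103) or Ifit3 (0.0912). With limma voom Ifit1 (0.132), Ifit2 (0.103), Ifit3 (0.115) and Ifit3b (0.167) did not pass. Here and below, values are listed in the order of tumors 1 to 4 of each group. Ifit1 was at 38.4, 49.7, 36.8 and 49.1 CPM in the shNT and 84.7, 93.4, 60.6 and 35.2 CPM in the shXBP1 tumors (log2 fold change 0.65 with SE 0.28, adjusted p = 0.124). The first 3 shXBP1 tumors lay above all shNT tumors and the fourth below all of them. Ifit2 was at 52.2, 53.8, 52.0 and 50.7 CPM in the shNT and 84.5, 85.7, 67.6 and 45.9 CPM in the shXBP1 tumors (log2 fold change 0.44 with SE 0.16, adjusted p = 0.0647). Its shNT tumors differed little from each other, and again shXBP1 tumor 4 lay below them. Ifit3 was at 45.4, 64.0, 53.2 and 68.9 CPM in the shNT and 136, 128, 78.3 and 47.7 CPM in the shXBP1 tumors (log2 fold change 0.75 with SE 0.33, adjusted p = 0.131), with shXBP1 tumor 4 next to the lowest shNT tumor. Ifit3b was at 9.26, 15.2, 12.8 and 16.1 CPM in the shNT and 30.6, 26.5, 16.5 and 11.8 CPM in the shXBP1 tumors (log2 fold change 0.68 with SE 0.30, adjusted p = 0.125), where shXBP1 tumor 3 was barely above the highest shNT tumor. Ifit3 and Ifit3b are near copies: 51.2% of the 50-base stretches in the Ifit3 transcripts also occur in those of Ifit3b, so the counting could split their reads and their separate values are uncertain. Without shXBP1 tumor 4 all 4 were called, with log2 fold changes of 0.88 (adjusted p = 0.00137, SE 0.16) for Ifit1, 0.61 (adjusted p = 0.000205, SE 0.09) for Ifit2, 0.99 (adjusted p = 0.0105, SE 0.22) for Ifit3 and 0.88 (adjusted p = 0.0154, SE 0.23) for Ifit3b. Without shXBP1 tumor 1 that of Ifit3b was 0.45 (adjusted p = 0.277, SE 0.28).

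The Mx proteins are dynamin-like GTPases that trap viral nucleoproteins, and many inbred mouse strains carry a defective Mx1. Neither of the 2 genes, neighbours on chromosome 16, passed the edgeR test. DESeq2 called Mx2 higher (adjusted p = 0.0402) but not Mx1 (0.0568). With limma voom neither Mx1 (0.167) nor Mx2 (0.129) passed. Mx1 was at 9.30, 19.0, 16.2 and 17 CPM in the shNT and 35.1, 25.1, 19.7 and 14 CPM in the shXBP1 tumors (log2 fold change 0.61 with SE 0.30, adjusted p = 0.166). The tumors spread widely within both groups, and shXBP1 tumor 4 lay inside the range of the controls. Mx2 was at 4.38, 6.62, 4.99 and 5.96 CPM in the shNT and 12, 9.80, 5.60 and 6.45 CPM in the shXBP1 tumors (log2 fold change 0.62 with SE 0.24, adjusted p = 0.0688), with shXBP1 tumors 3 and 4 inside that range. Without shXBP1 tumor 4 the log2 fold changes were 0.80 (adjusted p = 0.0486, SE 0.27) for Mx1 and 0.74 (adjusted p = 0.0274, SE 0.24) for Mx2. The call of Mx2 was also gained without shXBP1 tumor 3 (log2 fold change 0.77, adjusted p = 0.0318). Without shXBP1 tumor 1 the values were lower, 0.35 (adjusted p = 0.365, SE 0.26) for Mx1 and 0.41 (adjusted p = 0.228, SE 0.23) for Mx2.

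The OAS proteins sense double-stranded RNA and make short oligoadenylates that switch on the nuclease RNase L. In shXBP1 tumors 5 of their 6 genes rose, with a median log2 fold change of 0.73, and in 4 the groups did not overlap. Over all genes tested 16.9% were called higher and 16.6% lay higher without overlap, which is also the background for the role counts below. Oas2 (ENSMUSG00000032690, chromosome 5, 120730333 to 120749853, minus strand) had the largest fold change of all 36 members. It was at 12.4, 21.0, 21.2 and 26.3 CPM in the shNT and 75.4, 57.1, 61.5 and 41.6 CPM in the shXBP1 tumors, which is 2.91-fold higher (log2 fold change 1.54 with SE 0.24, adjusted p = 0.00159). The lowest shNT tumor, tumor 1, was far under the others, and even shXBP1 tumor 4 lay clear of the controls. Oas3, the next gene on the chromosome, was at 21.8, 24.9, 23.9 and 26.1 CPM in the shNT and 49.7, 46.3, 42.9 and 33.5 CPM in the shXBP1 tumors (log2 fold change 0.83 with SE 0.12, adjusted p = 0.00034), the smallest adjusted p of the family, with narrow groups that did not meet. Oas1a was at 35.5, 37.6, 36.6 and 36.8 CPM in the shNT and 64.5, 59.4, 55.6 and 43.0 CPM in the shXBP1 tumors (log2 fold change 0.60 with SE 0.11, adjusted p = 0.00174). Its 4 shNT tumors lay within about 2 CPM of each other. Oas1g was at 13.7, 17.4, 14.1 and 15.1 CPM in the shNT and 30.4, 24.6, 22.9 and 14.7 CPM in the shXBP1 tumors (log2 fold change 0.62 with SE 0.18, adjusted p = 0.026), and here shXBP1 tumor 4 lay among the controls. That call was lost without shNT tumor 1 (adjusted p = 0.0666), 3 (0.0643) or 4 (0.0582), without shXBP1 tumor 1 (0.0799), 2 (0.0623) or 3 (0.0557), and with limma voom (0.0596). Oas1a and Oas1g share 57.6% of the 50-base stretches of the Oas1a transcripts, so the split of reads between them is uncertain. Oasl2, an OAS-like protein with ubiquitin-like domains, was at 74.7, 101, 88.1 and 99.7 CPM in the shNT and 202, 178, 161 and 119 CPM in the shXBP1 tumors (log2 fold change 0.86 with SE 0.15, adjusted p = 0.00186), all shXBP1 tumors above all controls. Oasl1, its neighbour, known in mice to hold back translation of Irf7, was at 7.25, 9.84, 6.07 and 8.14 CPM in the shNT and 15.4, 9.90, 8.81 and 8.36 CPM in the shXBP1 tumors (log2 fold change 0.44 with SE 0.21, adjusted p = 0.139). A single tumor, shXBP1 tumor 1, stood well above the shNT range for Oasl1, and it did not pass without shXBP1 tumor 4 either (log2 fold change 0.54 with SE 0.21, adjusted p = 0.0583). Without shXBP1 tumor 1 its log2 fold change was 0.20 (adjusted p = 0.451, SE 0.18).

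The ISG15 system attaches the ubiquitin-like protein ISG15 to other proteins, and its 3 genes all rose without overlap between the groups. Of all genes tested 16.9% were called higher and 16.6% lay higher without overlap. Herc6, the ligase that does so in mice, was at 41.7, 37.0, 41.5 and 36.2 CPM in the shNT and 80.0, 104, 79.0 and 49.6 CPM in the shXBP1 tumors (log2 fold change 0.998 with SE 0.18, adjusted p = 0.00269). The fourth shXBP1 tumor was the lowest of its group by a wide margin and still above the controls. Isg15 itself ranged from 32.5 to 41.5 CPM in shNT and from 43.9 to 80.4 CPM in shXBP1 tumors (log2 fold change 0.74 with SE 0.17, adjusted p = 0.00685). Usp18, which removes ISG15 and dampens signalling at Ifnar2, ranged from 9.42 to 14.4 and from 14.5 to 28.6 CPM (log2 fold change 0.90 with SE 0.21, adjusted p = 0.00848), so that the lowest shXBP1 and the highest shNT tumor were almost level.

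Of the 3 cytosolic sensors of viral RNA, 2 rose. Ddx58, the gene of RIG-I, was at 30.5, 34.2, 36.5 and 33.8 CPM in the shNT and 44.2, 52.5, 51.6 and 41.8 CPM in the shXBP1 tumors (log2 fold change 0.49 with SE 0.10, adjusted p = 0.00263). The difference was modest, and it was the member in which shXBP1 tumor 4 lay closest to the other shXBP1 tumors (log2 difference -0.24). Dhx58, the gene of the regulator LGP2, was at 12.4, 21.3, 18.0 and 18.3 CPM in the shNT and 39.5, 36, 29.5 and 25.3 CPM in the shXBP1 tumors (log2 fold change 0.90 with SE 0.18, adjusted p = 0.00294), with shNT tumor 1 the lowest of all. Ifih1, the gene of MDA5, was at 29.1, 33.9, 30.2 and 31.8 CPM in the shNT and 43.9, 56.2, 40.9 and 26.9 CPM in the shXBP1 tumors (log2 fold change 0.42 with SE 0.18, adjusted p = 0.0995). For Ifih1 shXBP1 tumor 4 was under every control tumor, and without it the log2 fold change was 0.59 (adjusted p = 0.00106, SE 0.11). Without shXBP1 tumor 2 it was 0.25 (adjusted p = 0.234, SE 0.15).

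Of the transcription factors that drive the program, Stat2 and Irf9, which act together in ISGF3, rose. Stat2 was at 69.8, 79.8, 85.3 and 81.9 CPM in the shNT and 172, 152, 143 and 103 CPM in the shXBP1 tumors (log2 fold change 0.84 with SE 0.14, adjusted p = 0.000844). Irf9 was at 55.3, 53.6, 57.1 and 60.6 CPM in the shNT and 97.1, 86.1, 92.1 and 71.2 CPM in the shXBP1 tumors (log2 fold change 0.61 with SE 0.10, adjusted p = 0.000721). In both genes the controls were close to each other and the groups did not meet. Irf7, which amplifies transcription of the interferon genes, was at 33.6, 48.7, 40.5 and 62.8 CPM in the shNT and 99.2, 87.4, 68.2 and 48.0 CPM in the shXBP1 tumors (log2 fold change 0.71 with SE 0.26, adjusted p = 0.069). The highest shNT tumor, tumor 4, lay above shXBP1 tumor 4, and Irf7 was called without either of them: 0.88 (adjusted p = 0.0174, SE 0.22) without shXBP1 tumor 4 and 0.89 (adjusted p = 0.03) without shNT tumor 4. Irf7 was also called by DESeq2 (adjusted p = 0.00568) and by limma voom (0.0448).

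Parp9 and Dtx3l form a complex of an ADP-ribosyltransferase and a ubiquitin ligase that is known to enhance interferon signalling, and Parp14 is a related transferase. All 3 genes, which lie together on chromosome 16, rose. Parp14 was at 136, 132, 155 and 132 CPM in the shNT and 304, 263, 253 and 186 CPM in the shXBP1 tumors (log2 fold change 0.86 with SE 0.13, adjusted p = 0.000486). The control tumors lay close together apart from tumor 3, and each shXBP1 tumor was higher. Parp9 was at 95.9, 89.8, 103 and 98.7 CPM in the shNT and 163, 174, 149.7 and 106 CPM in the shXBP1 tumors (log2 fold change 0.61 with SE 0.13, adjusted p = 0.0047), with shXBP1 tumor 4 just above the highest control. Dtx3l ranged from 79.0 to 106 CPM in shNT and from 102 to 159.7 CPM in shXBP1 tumors (log2 fold change 0.54 with SE 0.14, adjusted p = 0.0109), and its groups overlapped. Parp9 (35938470 to 35972605, plus strand) and Dtx3l (35926511 to 35939151, minus strand) overlap on opposite strands at one end. The strand setting of the counting was not given in the sources used here, so reads of the overlap cannot be assigned.

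Of the 12 other effectors 9 rose and 3 did not pass. The largest change was that of Ifi27l2a, a small interferon-induced membrane protein, at 33.1, 30.1, 34.8 and 59.9 CPM in the shNT and 132, 151, 96.6 and 54.2 CPM in the shXBP1 tumors (log2 fold change 1.46 with SE 0.36, adjusted p = 0.0202). The shNT tumor 4 stood apart from the other controls and above shXBP1 tumor 4. The call of Ifi27l2a was lost without shNT tumor 1 (adjusted p = 0.0581), 2 (0.0527) or 3 (0.0545) or shXBP1 tumor 2 (0.0552). Xaf1, a pro-apoptotic partner of XIAP, was at 46.6, 44.6, 47.9 and 49.95 CPM in the shNT and 112, 123, 106 and 68.6 CPM in the shXBP1 tumors (log2 fold change 1.12 with SE 0.15, adjusted p = 0.000324). Rtp4, a chaperone of membrane receptors, was at 37.0, 37.7, 39.6 and 40.2 CPM in the shNT and 88.8, 86.6, 81.9 and 57.4 CPM in the shXBP1 tumors (log2 fold change 1.03 with SE 0.12, adjusted p = 0.000117), the smallest adjusted p of the 36. The controls of Xaf1 and Rtp4 were tight and all shXBP1 tumors lay above them. Lgals3bp, a secreted glycoprotein that binds galectins, was at 79.3, 101, 103 and 109 CPM in the shNT and 215, 211, 205 and 155 CPM in the shXBP1 tumors (log2 fold change 1.004 with SE 0.12, adjusted p = 0.000133), again with no overlap. Trim30a, a mouse TRIM protein, was at 43.7, 49.0, 51.8 and 50.3 CPM in the shNT and 101, 112, 95.7 and 59.9 CPM in the shXBP1 tumors (log2 fold change 0.92 with SE 0.16, adjusted p = 0.00187). In both of these shXBP1 tumor 4 stood well below the other 3 tumors of its group and above the controls. Bst2, tetherin, which holds budding virions at the membrane, was at 230.2, 193, 245 and 286 CPM in the shNT and 529, 485, 416 and 296 CPM in the shXBP1 tumors (log2 fold change 0.86 with SE 0.18, adjusted p = 0.00467), where shXBP1 tumor 4 was close to the highest control. Samd9l, a restriction factor, was at 78.7, 73.5, 74.1 and 69.6 CPM in the shNT and 107, 144, 105 and 72.1 CPM in the shXBP1 tumors (log2 fold change 0.53 with SE 0.17, adjusted p = 0.0344), with shXBP1 tumor 4 among the controls. The call of Samd9l was lost without any one of the other 7 tumors (adjusted p from 0.0557 to 0.0821) and with no filter on low counts (0.0507).

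The remaining called effectors were Ifi44, 2.15-fold higher (log2 fold change 1.10 with SE 0.23, adjusted p = 0.00713), and Cmpk2, a mitochondrial nucleotide kinase (log2 fold change 0.76 with SE 0.19, adjusted p = 0.0107), whose groups overlapped. Its neighbour on chromosome 12, Rsad2, the gene of viperin, which makes a chain-terminating nucleotide, did not pass. Rsad2 was at 11.9, 20.5, 14 and 17.8 CPM in the shNT and 34.4, 23.3, 16.2 and 17.8 CPM in the shXBP1 tumors (log2 fold change 0.51 with SE 0.25, adjusted p = 0.16). Its lowest shXBP1 tumor was tumor 3, and shXBP1 tumors 3 and 4 both lay inside the range of the controls. Ifi35, a leucine zipper protein, was at 73.6, 68.9, 76.3 and 84.6 CPM in the shNT and 108, 105, 85.9 and 71.4 CPM in the shXBP1 tumors (log2 fold change 0.29 with SE 0.12, adjusted p = 0.1). It was called without shXBP1 tumor 4 (log2 fold change 0.40 with SE 0.10, adjusted p = 0.00688), while Rsad2 was not (log2 fold change 0.62 with SE 0.27, adjusted p = 0.117). Without shXBP1 tumor 1 the log2 fold change of Rsad2 was 0.25 (adjusted p = 0.396, SE 0.19). Eif2ak2, the gene of PKR, the kinase that halts translation when it meets double-stranded RNA, had the smallest fold change of the 36 members. It was at 68.5, 74.2, 79.3 and 70.6 CPM in the shNT and 81.7, 77.0, 74.8 and 64.5 CPM in the shXBP1 tumors (log2 fold change 0.03 with SE 0.09, adjusted p = 0.852). The shXBP1 tumors lay on both sides of the controls, and without shXBP1 tumor 1 the log2 fold change of Eif2ak2 was -0.021. Apart from the pairs named above, shared stretches of 50 bases were most frequent for Herc6 (12% with Gm45193), Rtp4 (11.6% with Gm45338), Ifit1 (7.06% with Ifit1bl2) and Trim30a (5.98% with Trim30d), so a part of their reads could also have been split.

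**Figure D2:**
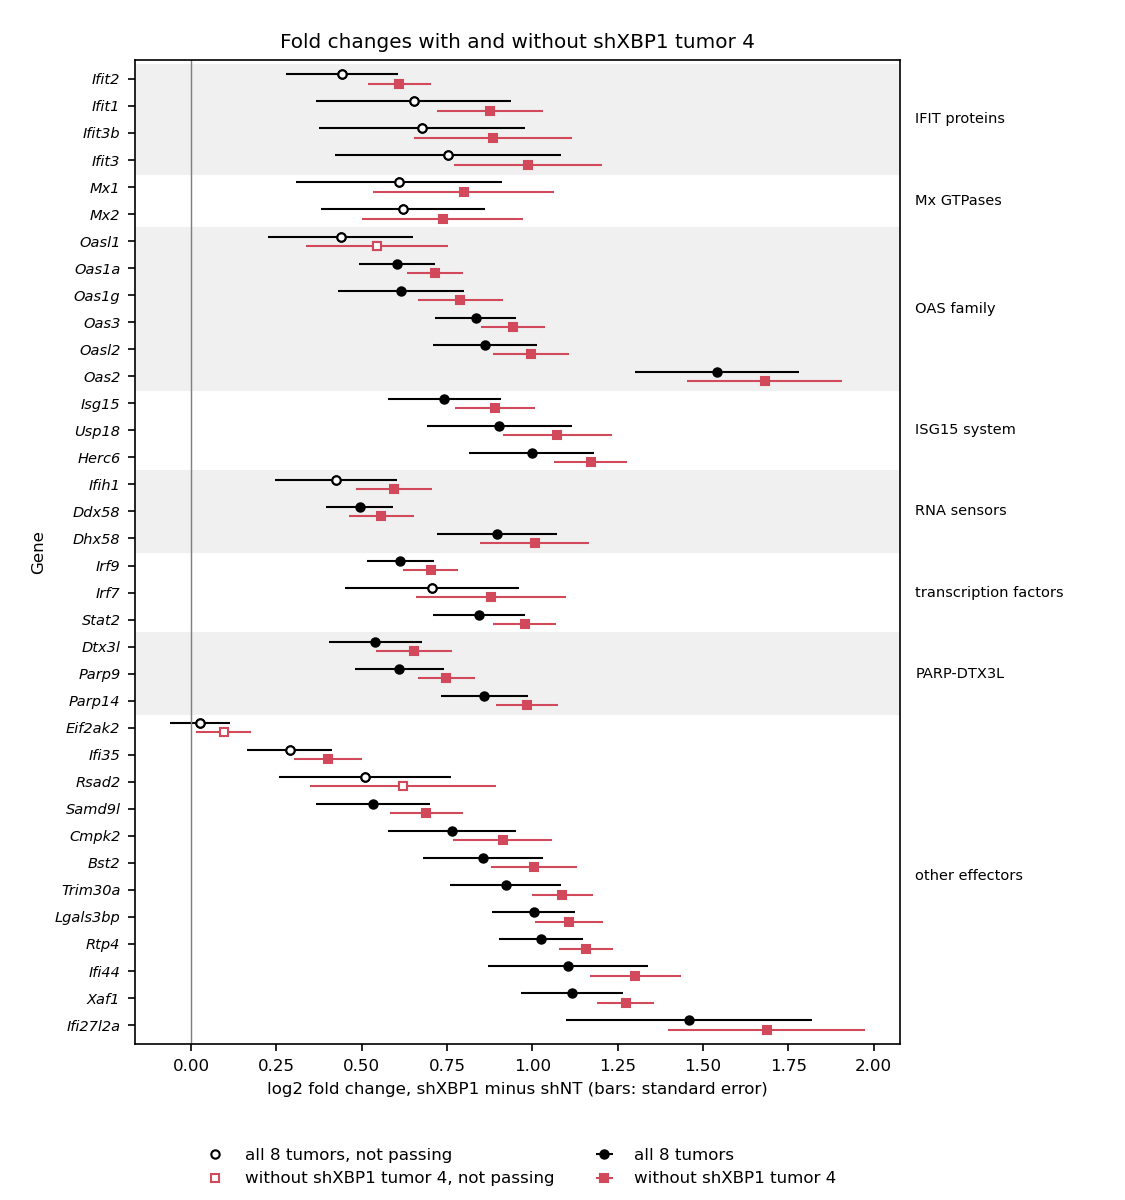
Log2 fold change of each member, shXBP1 minus shNT, with its standard error (bars), by role. Black circles come from all 8 tumors and red squares from the fit without shXBP1 tumor 4; open symbols did not pass the test, which holds for 12 and 3 members.

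Levels were compared between genes by FPKM, which is scaled to gene length (mean ± SD, n = 4). Bst2 was the highest member in both groups, at 265 ± 36.9 FPKM in shNT and 479 ± 97.0 FPKM in shXBP1 tumors, above the range of every other member. Ifi27l2a came next, at 74.9 ± 24.7 and 205 ± 74.6 FPKM. In shNT tumors Ifi35 (50.4 ± 3.29 FPKM), Lgals3bp (44.9 ± 6.66 FPKM) and Isg15 (44.3 ± 5.26 FPKM) followed, with ranges that overlapped. In shXBP1 tumors the order of these was different, with Lgals3bp at 102 ± 21.8, Isg15 at 73.7 ± 16.1 and Ifi35 at 62.6 ± 9.83 FPKM, and the ranges of neighbours again overlapped. At the low end were Mx2 (1.98 ± 0.413 and 3.05 ± 0.996 FPKM), Oasl1 (3.19 ± 0.743 and 4.28 ± 1.22 FPKM) and Rsad2 (3.76 ± 0.992 and 5.32 ± 1.81 FPKM). These 3 were also among the members that did not pass.

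**Figure D3:**
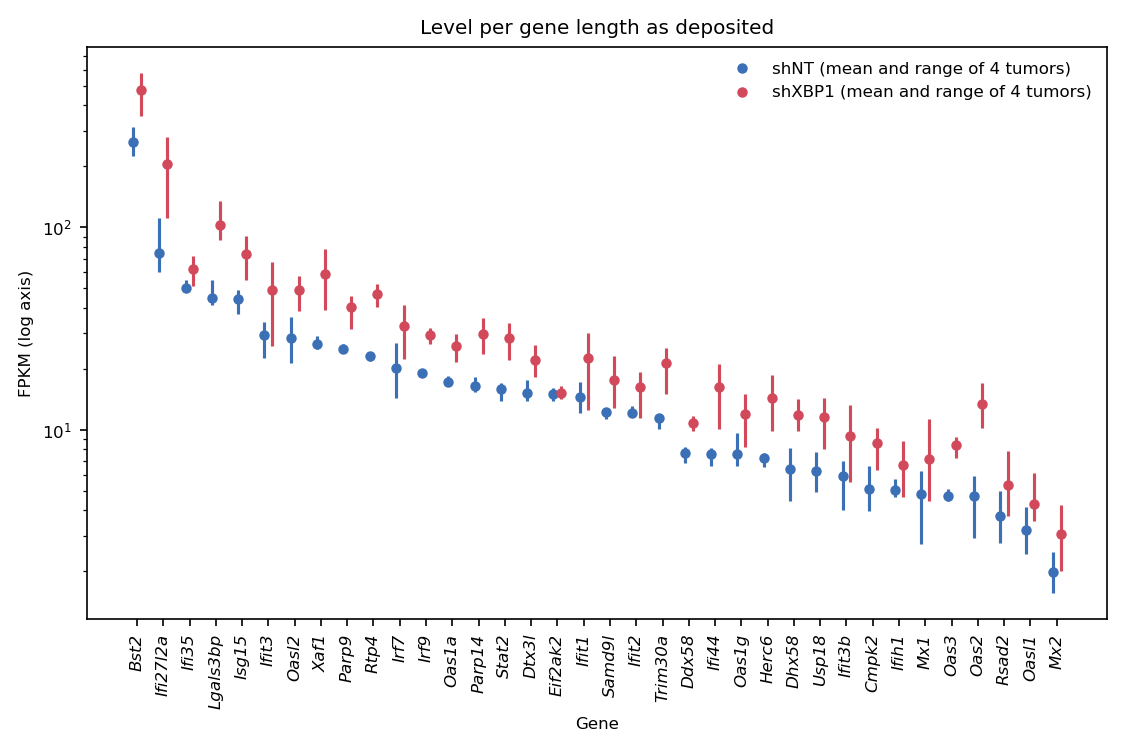
Deposited FPKM of each member on a log axis, ordered by the mean of the shNT tumors; points are means and bars the range over the 4 tumors of a group. Members span from 1.98 FPKM (Mx2) to 265 FPKM (Bst2) in shNT tumors.

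The spread of the members among shXBP1 tumors rested largely on tumor 4. The median SD of log2 CPM over the members was 0.38 in shXBP1 tumors, 0.21 over shXBP1 tumors 1 to 3 alone and 0.16 in shNT tumors. Over the 11223 genes with a mean of at least 5 CPM the same medians were 0.16, 0.12 and 0.13. By role the SD among shXBP1 tumors was widest for IFIT (0.63) and Mx (0.54) and narrowest for the RNA sensors (0.29), and over tumors 1 to 3 alone these were 0.38, 0.49 and 0.21. The members' CPM summed to 3741, 3633, 3067 and 2208 in shXBP1 tumors 1 to 4, and to 1697, 1825, 1898 and 2005 in shNT tumors 1 to 4. Within the shXBP1 group tumor 1 was the highest in 24 members and tumor 2 in 12, while tumor 4 was the lowest in 34. The exceptions were Mx2 and Rsad2, lowest in tumor 3. All 24 called members had their lowest shXBP1 value in tumor 4. The same held for 64.8% of all genes called higher and for 33.3% of all genes tested.

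The fourth shXBP1 tumor lay above all controls in 19 members, inside their range in 13, and below all of them in 4, which were Ifit1, Ifit2, Ifih1 and Eif2ak2. It differed from the mean of shXBP1 tumors 1 to 3 by a median of -0.64 log2 CPM over the members (range -1.22 to -0.24), by -0.29 over all genes called higher and by -0.01 over all genes tested. The gap was widest in Ifit3 (-1.22), Ifi27l2a (-1.20) and Ifit1 (-1.15). Against the controls, shXBP1 tumors 1 to 3 differed by a median of 0.89 and tumor 4 by 0.25. Among the 8 role groups the median of tumor 4 minus the controls was below 0 for IFIT (-0.22) and above 0 for the other 7, from 0.08 for Mx to 0.33 for the transcription factors. In 32 members shXBP1 tumors 1 to 3 all lay above all controls, as they did in 22.2% of the genes tested. Without shXBP1 tumor 4 the test called 33 of 36 members higher, when 19.2% of 15101 genes tested were called higher, and the median log2 fold change was 0.89. All 36 fold changes were larger in that fit. This follows from tumor 4 lying below the mean of shXBP1 tumors 1 to 3 in every member, so it is no separate result. The 9 members gained were Ifit1, Ifit2, Ifit3, Ifit3b, Mx1, Mx2, Irf7, Ifih1 and Ifi35, and the 3 that did not pass were Rsad2, Oasl1 and Eif2ak2. The value of Eif2ak2 was then 0.10 (adjusted p = 0.393, SE 0.08).

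**Figure D4:**
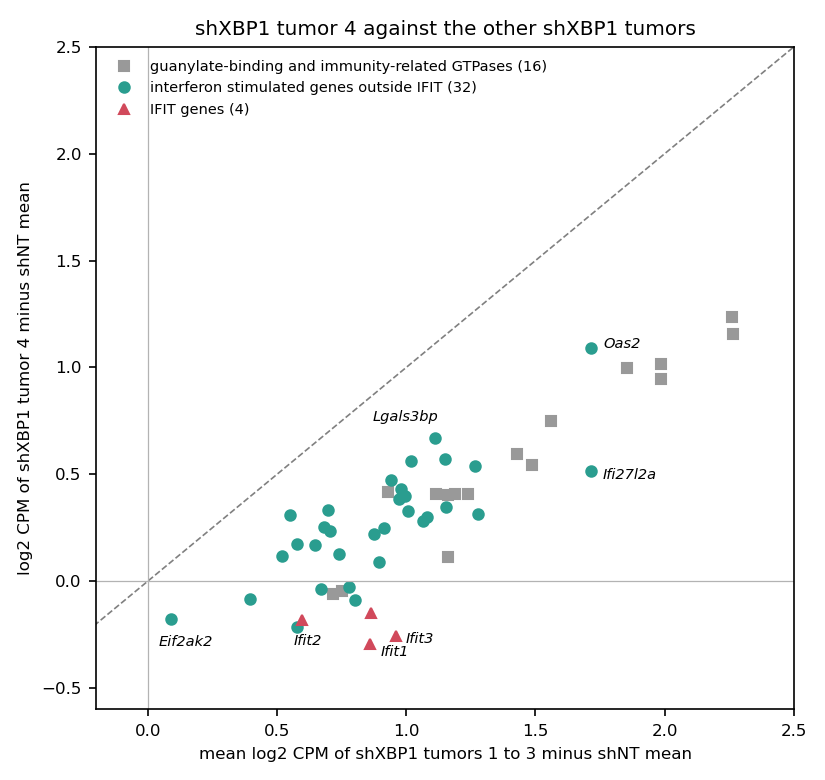
Log2 CPM of shXBP1 tumor 4 minus the shNT mean (y axis) against the mean of shXBP1 tumors 1 to 3 minus the shNT mean (x axis), 1 point per gene. All points lie under the dashed line of equality, and the IFIT genes (red triangles) lie below 0 on the y axis, as do the members Ifih1, Eif2ak2, Mx1, Ifi35, Samd9l and Oas1g and the GTPase genes Tgtp1 and Tgtp2.

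Genes that answer mainly to interferon-gamma, the guanylate-binding proteins and immunity-related GTPases, were set beside the members. Of these 16 genes 14 were called higher, against 16.9% of all genes tested, with a median log2 fold change of 1.16. Tgtp1 (log2 fold change 0.54 with SE 0.20, adjusted p = 0.0678) and Tgtp2 (log2 fold change 0.57 with SE 0.21, adjusted p = 0.064), near copies between which the counting could split reads, did not pass. The 11 genes of MHC class I presentation were all called higher, with a median of 0.76. Tumor 4 was the lowest shXBP1 tumor for 16 of 16 and 11 of 11 of these genes, by a median of -0.83 and -0.44 log2 CPM from tumors 1 to 3. Its median difference from the controls was 0.48 for the GTPases and 0.36 for MHC class I genes, beside 0.25 for the 36 members. The order within the shNT group was not the same for the lists. The members were lowest in shNT tumor 1 in 23 of 36 cases and in tumor 2 in 8. The GTPases were lowest in shNT tumor 2 in 15 of 16 cases, as was Ptprc, and highest in tumor 3 in 12. The MHC class I genes were lowest in shNT tumor 2 in 9 of 11 cases and highest in tumor 4 in 8. Among shXBP1 tumors the highest was tumor 1 for 24 of 36 members and 7 of 11 MHC class I genes, and tumor 2 for 14 of 16 GTPases. Whether these lists differ from each other was not tested.

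Of 54 other genes of interferon signalling, 33 passed the filter, 25 rose, 0 fell and 8 did not pass, with a median log2 fold change of 0.66. The shares over all genes tested were 16.9% higher and 13.1% lower. Among 21 ligands, 20 were under the filter. The counts of Ifnb1, the beta interferon, were 2 in all shNT and 0 in all shXBP1 tumors. Ifna7 and Ifnab had 2 in each group, Ifne and Ifnk 0 and 3, and Ifnz 9 and 4. The other 14 ligands, Ifna1, Ifna2, Ifna4, Ifna5, Ifna6, Ifna9, Ifna11, Ifna12, Ifna13, Ifna14, Ifna15, Ifna16, Ifnl2 and Ifnl3, had 0 counts in all tumors. A count of 0 over the tumors of a group allows up to 3 counts, by counting error, so a difference in type I interferon RNA was not detectable at this depth. Ifng, the interferon-gamma gene and the one ligand tested, was at 5.92, 2.93, 3.92 and 5.02 CPM in the shNT and 29, 29.4, 24.9 and 8.70 CPM in the shXBP1 tumors (log2 fold change 2.37 with SE 0.40, adjusted p = 0.00273). The shXBP1 tumor 4 had the lowest Ifng of its group and lay above the controls.

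Of 8 tested receptors and kinases 6 rose. Tyk2, the kinase at Ifnar1, was at 26.9, 28.3, 30.0 and 28.9 CPM in the shNT and 46.6, 41.6, 43.1 and 41.2 CPM in the shXBP1 tumors (log2 fold change 0.60 with SE 0.08, adjusted p = 0.000238). Ifnar2 was at 42.6, 42.0, 46.2 and 45.2 CPM in the shNT and 71.1, 77.6, 69.1 and 59.5 CPM in the shXBP1 tumors (log2 fold change 0.66 with SE 0.09, adjusted p = 0.000287). Ifnar1, the other chain of that receptor, was at 86.7, 90.1, 91.1 and 98.5 CPM in the shNT and 109.8, 105, 109 and 106 CPM in the shXBP1 tumors (log2 fold change 0.23 with SE 0.07, adjusted p = 0.0265), and in all 3 genes the groups did not overlap. Il10rb, a chain of the lambda interferon receptor, rose by 0.64 (adjusted p = 0.000564), while its partner Ifnlr1 had 2 counts in shNT and 8 in shXBP1 tumors and was not tested. Jak1 (log2 fold change -0.04 with SE 0.08, adjusted p = 0.745) and Jak2 (log2 fold change 0.24 with SE 0.09, adjusted p = 0.0531) did not pass.

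All 5 further transcription factors rose with no overlap between the groups, which 16.6% of all genes tested also showed with shXBP1 higher. Irf5, a factor of myeloid cells downstream of Toll-like receptors, was at 33.5, 30.2, 35.5 and 34.7 CPM in the shNT and 66.9, 66.7, 71.4 and 50.9 CPM in the shXBP1 tumors (log2 fold change 0.94 with SE 0.11, adjusted p = 8.83e-05). Irf1, which answers strongly to interferon-gamma, was at 326, 283, 399.7 and 298 CPM in the shNT and 596, 616, 611 and 542 CPM in the shXBP1 tumors (log2 fold change 0.86, SE 0.11). Irf8, a factor of macrophages and dendritic cells, was at 81.1, 53.6, 77.5 and 65.8 CPM in the shNT and 157, 129, 129.8 and 114 CPM in the shXBP1 tumors (log2 fold change 0.93 with SE 0.13, adjusted p = 0.000411). For Irf1 shXBP1 tumor 4 was near the rest of its group.

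Of 14 genes of nucleic acid sensing 10 rose. Trex1, the exonuclease that clears cytosolic DNA, was at 11.1, 11.0, 11.6 and 11.8 CPM in the shNT and 26.4, 24.7, 27.2 and 20.7 CPM in the shXBP1 tumors (log2 fold change 1.12 with SE 0.11, adjusted p = 3.01e-05). Sting1, the adaptor of cytosolic DNA sensing, was at 58.5, 50.9, 64.8 and 58.7 CPM in the shNT and 112, 104, 113 and 92.5 CPM in the shXBP1 tumors (log2 fold change 0.86 with SE 0.09, adjusted p = 6.51e-05). Samhd1, which depletes nucleotides, was at 356, 339.9, 398 and 395 CPM in the shNT and 868, 768, 729.6 and 573 CPM in the shXBP1 tumors (log2 fold change 0.98 with SE 0.12, adjusted p = 0.000119). In all 3 the groups lay apart. Cgas, the DNA sensor upstream of Sting1 (log2 fold change 0.02 with SE 0.15, adjusted p = 0.927), Mavs, the adaptor of the RNA sensors (log2 fold change 0.12 with SE 0.08, adjusted p = 0.293), Tbk1, the kinase both routes use (log2 fold change 0.30 with SE 0.11, adjusted p = 0.0654), and Adar, the RNA editor (log2 fold change 0.21 with SE 0.11, adjusted p = 0.175), did not pass. Of the 5 negative regulators 3 rose. Socs1, a feedback inhibitor of the kinases, was at 39.9, 24.6, 41.8 and 40.5 CPM in the shNT and 113, 97.1, 105 and 76.9 CPM in the shXBP1 tumors (log2 fold change 1.41 with SE 0.17, adjusted p = 0.000232). Ptpn6, a phosphatase of blood cells, was at 29.9, 23.8, 36.1 and 31.7 CPM in the shNT and 77.1, 89.7, 84.1 and 52.7 CPM in the shXBP1 tumors (log2 fold change 1.32 with SE 0.17, adjusted p = 0.000314). The related Socs3 was at 119, 126, 108 and 146 CPM in the shNT and 198, 189.7, 201 and 259 CPM in the shXBP1 tumors (log2 fold change 0.77 with SE 0.12, adjusted p = 0.000511). The highest Socs3 was that of shXBP1 tumor 4, the tumor that was highest of its group in 0 of the 36 members. Ptpn2 (log2 fold change 0.06 with SE 0.09, adjusted p = 0.621) and Pias1 (log2 fold change 0.16 with SE 0.09, adjusted p = 0.211) did not pass.

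**Figure D5:**
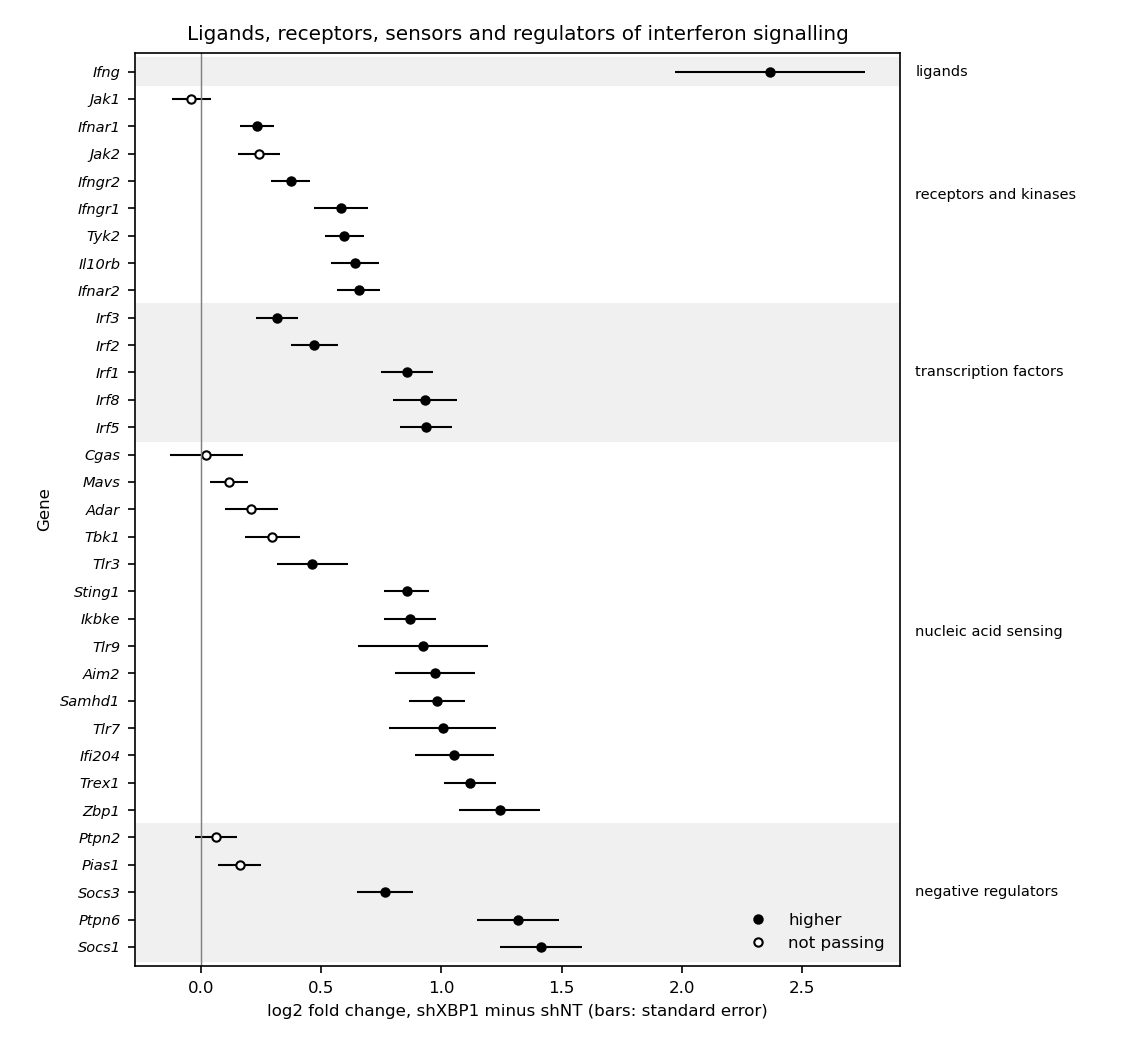
Log2 fold change, shXBP1 minus shNT, with its standard error (bars) for the 33 tested genes of interferon signalling outside the 36 members, by role. Filled circles passed the test (25, all higher) and open circles did not (8).

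Markers of host cells also differed between the groups, and their shift in shXBP1 tumor 4 varied by cell type. The summed CPM of 5 T cell markers, all of which rose, was 21.9 to 44.1 in shNT and 62.0 to 199.7 in shXBP1 tumors, and shXBP1 tumor 4 differed from tumors 1 to 3 by a median of -1.42 log2 CPM in these markers. The summed CPM of 6 macrophage markers, 5 of which rose, was 428 to 604 and 748 to 1331, with a median of -0.49 in tumor 4. That tumor was the lowest shXBP1 tumor in 4 of these 6. Of 4 tested neutrophil markers 3 rose, from 6.25 to 11.1 CPM in sum in shNT to 24.8 to 31.2 in shXBP1 tumors, and tumor 4 was higher than tumors 1 to 3 by a median of 0.90. S100a8, S100a9 and Cxcr2, which did not pass, were highest of the shXBP1 group in tumor 4, at 4.74, 8.65 and 2.76 CPM. Csf3r went the other way, at 12.7 CPM in tumor 4 against 20.8, 16.8 and 18.7 CPM in tumors 1 to 3. Plasmacytoid dendritic cells, known as strong sources of type I interferon, have the defining markers Siglech and Ccr9, which had 14 and 9 counts in all in shNT and 60 and 37 in shXBP1 tumors and were under the filter. Of the 3 tested markers of these cells 2 rose, 1 of them the member Bst2. Ms4a1 and Cd79a, markers of B cells, were also under the filter. Of the remaining lists 2 of 3 natural killer cell, 4 of 5 conventional dendritic cell, 3 of 5 fibroblast and 3 of 3 endothelial markers rose. In that order, tumor 4 differed from tumors 1 to 3 by medians of 0.02, -0.97, 0.19 and -0.06 log2 CPM. The share of all genes tested that rose was 16.9%. The fold of Ptprc, 2.73, was above that of 34 members, all but Oas2 and Ifi27l2a. The part of these cells in the members' differences was not tested. In the fit with Ptprc the members' fold changes ranged from -0.47 to 1.01 on the log2 scale, 22 were above 0, and the SE was 2.09 times as large at the median. Oas2 had the largest value there (1.01, SE 0.67), and Lgals3bp (0.56, SE 0.25) was the member with an unadjusted p under 0.05.

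The authors' deposited table gives an adjusted p below 0.05 for 29 of the 36 members, among them all 24 called here. The others were Ifit2 (0.0233), Ifit3b (0.0305), Mx2 (0.0369), Irf7 (0.00476) and Ifih1 (0.0484), by the authors' DESeq2 test. The share of all genes below 0.05 there was not counted, so no background stands beside the 29. The log2 fold changes in the authors' deposited table ranged from 0.03 to 1.43 over the members.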

How the data were processed

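RNA-seq libraries of 8 tumors, 4 shNT and 4 shXBP1, were put in groups by their genotype label. The authors deposited raw counts and FPKM for each tumor in 1 table, per the file headers, with their own DESeq2 log2 fold changes and adjusted p-values. GRCm38 is the build named, per the submitters' processing notes. The aligner, counting tool, strand setting, annotation release and whether a count is a read or a fragment were not given in the sources used here. Coordinates are those of GENCODE M21.

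From the counts, genes were filtered with filterByExpr and scaled by TMM (factors 0.980 to 1.04). Groups were compared with edgeR's quasi-likelihood test (version 4.0.16, R 4.3.3, robust, two-sided) and Benjamini-Hochberg adjustment over 14907 genes, at a threshold of 0.05. The SE of a log2 fold change, in text and figures, was derived from that test, as the absolute log2 fold change divided by the square root of F. CPM are counts scaled by these sizes; differences between tumors used log2 CPM, with a prior count of 2 added for the medians of role groups, of the other lists and over all tested or called genes, but not for single members or the median over all 36. FPKM were used for levels between genes. Tumors of a group differed beyond sampling noise (chi-square divided by its degrees of freedom at least 16.6). The limit of 3 counts covers counting error only.

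The members and lists were chosen with earlier results of these data known. Values in each tumor are given for members with the smallest p or largest fold change of their role, that did not pass, in which shXBP1 tumor 4 lay outside the range of tumors 1 to 3 by more than that range, or whose call was lost without 1 tumor. In the signalling list up to 3 genes per role were named by p, with those under the filter; others named there were chosen after their values were seen. Alternatives were DESeq2 (1.42.0), limma voom (3.58.1), RLE factors, other filters, no robust estimation, a threshold of 0.01, the tumor number as a block, Ptprc as a covariate, and leaving out each tumor. The procedure was tested on simulated data. Some genes of the lists are not reported here.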

Additional observations from a re-analysis of the deposited data

Results flagged for a closer look

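In 8 of the 138 groups of 4 tumors looked at (5.80%), over the members and the tested signalling genes, 1 tumor stood far from the other 3 by Dixon's test, and chance alone gives about 1 in 20. Among the members, Parp14 was at 155 CPM in shNT tumor 3 with the other controls at 132 to 136 CPM, and Ifi27l2a was at 59.9 CPM in shNT tumor 4 with the others at 30.1 to 34.8 CPM. Lgals3bp was at 155 CPM in shXBP1 tumor 4, below 205 to 215 CPM in the other shXBP1 tumors. Among the signalling genes, shXBP1 tumor 4 had the lowest Tlr7, at 6.86 CPM against 12 to 12.6 CPM, and the highest Socs3, at 259 CPM against 190 to 201 CPM. Ifngr2 was highest in shXBP1 tumor 2, at 89.6 CPM against 80.8 to 82.0 CPM. Adar was highest in shXBP1 tumor 1, at 123 CPM against 89.3 to 94.2 CPM. Socs1 was lowest in shNT tumor 2, at 24.6 CPM against 39.9 to 41.8 CPM.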

How the results depend on the processing

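The count of members called higher was 28 with DESeq2, 24 with limma voom, 24 with RLE factors, 23 with no filter, 26 of 34 tested under a filter of 10 CPM in 4 libraries, 25 without robust estimation and 19 at a threshold of 0.01. At that threshold 1644 genes in all were higher and 879 lower. In the main fit 2517 of 14907 genes were called higher. Of the same 14907, DESeq2 called 2744 higher, limma voom 2462, RLE factors 2511 and the fit without robust estimation 2506. With no filter 2513 of 20824 genes were higher, and under the filter of 10 CPM 1869 of 10145. Leaving out 1 tumor gave 21 to 33 members with a median of 0.56 to 0.89, 22 to 27 signalling genes, and 2058 to 2904 genes higher and 1303 to 2401 lower in all; 1303 was the count without shNT tumor 3. In these 8 fits 21 members were called each time. With the replicate block 23 members were higher (Ifi27l2a was lost, adjusted p = 0.117) and the median was 0.68. Of all 14907 genes 2040 were higher and 1304 lower with that block. The labels do not say whether tumors of the same number shared a day or a mouse. Deviations of tumors with the same number correlated at -0.07, -0.14, -0.02 and -0.06, and 0 tumors correlated best with their own number. These correlations cannot show whether the numbers share a design. With the Ptprc covariate 0 members and 1 signalling gene were called higher, 134 genes in all were higher and 106 lower, and the median was 0.037. The sign of 14 members turned in that fit: Ifit1 -0.47, Ifit2 -0.42, Ifit3 -0.44, Ifit3b -0.22, Ifih1 -0.47, Bst2 -0.12, Ifi35 -0.35, Parp9 -0.23, Dtx3l -0.20, Eif2ak2 -0.27, Trim30a -0.021, Samd9l -0.43, Herc6 -0.15 and Ifi27l2a -0.23. Their SE ranged from 0.19 (Parp9) to 0.90 (Ifit3), and 0 of them were lower at an unadjusted p under 0.05 by edgeR. Leaving out 1 tumor moved Eif2ak2 between -0.021 (without shXBP1 tumor 1) and 0.095. The cause of these differences was not tested. Depth limits the interferon ligands, which had at most 13 counts over the 8 tumors apart from Ifng.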
